A study of Mus musculus with 120 samples.

Results

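The cerebellum of 10-week-old mice was compared between 4 animals labelled 175QK772T and 4 labelled WT, which are 8 of the 120 libraries in the series. The libraries were chosen by their labels alone, and every gene was compared. The series is a mouse knock-in model of spinocerebellar ataxia type 1, in which the coding sequence of Atxn1 carries a lengthened CAG repeat. Genotypes in the design are WT, Atxn1 175Q/2Q and Atxn1 175QK772T/2Q, all on C57BL/6J, so that each mutant has 1 expanded and 1 ordinary allele in every cell of the body from conception. In 175QK772T mice the expanded allele also carries the lysine to threonine change K772T, which lies in the signal that carries ataxin-1 into the nucleus, and the comparison with WT shows which transcript differences are present with that signal changed. No treatment is given in the labels. Of the WT mice 2 were female and 2 male, and of the 175QK772T mice 3 were female and 1 male. Each mouse gave 1 cerebellum library beside libraries of 4 other regions. A further 4 mice labelled 175Q, of which 2 were female and 2 male, were sequenced beside them.

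Ataxin-1 is a chromatin-associated protein that enters the nucleus, binds the transcriptional repressor Capicua (CIC) and its own relative ataxin-1-like, and represses target genes with them. The lengthened repeat makes the protein persist, and Purkinje cells, the only output of the cerebellar cortex, are the neurons in which its effects have been studied most. Purkinje cells read out granule cell input through parallel fibres with glutamate receptors, internal calcium stores and a large set of potassium channels, and granule cells outnumber them by far in whole cerebellum. RNA of the whole tissue was measured, so fewer cells of a type and less RNA per cell cannot be told apart.

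The 8 libraries held 69.1 to 86.9 M counted read pairs each, with 4.08 to 4.62% of them on mitochondrial genes. WT libraries had the levels of a cerebellum: Gabra6, a GABA receptor subunit of granule cells, averaged 820.5 CPM (counts per M counted pairs, with TMM scaling) against 6.03 in WT brainstem, and Pcp2, a Purkinje cell protein, 359 against 1.67. In that respect 1 library stood apart from the rest. WT replicate 3 had 16.1 CPM of Ttr, the transthyretin of choroid plexus, whereas the other 7 had 1039 to 2314, and it had the highest levels of Dbh and Slc6a2, genes of noradrenergic neurons. Where 4 values stand in a row they are replicates 1 to 4, in that order. P-values measure the spread between these mice.

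The expression of the mutated gene itself was higher in 175QK772T. Atxn1 (ENSMUSG00000046876, chr13:45549755-45965008, minus strand) was at 49.4, 50.04, 50.4 and 46.8 CPM in the WT mice and at 60.5, 63.2, 63.6 and 60.3 in the 175QK772T mice. All 4 mutants lay above all 4 WT mice. The log2 fold change with its standard error was 0.32 ± 0.04 (edgeR quasi-likelihood test, Benjamini-Hochberg adjusted p = 0.00011), a rise of 24.6%. Counts do not separate the alleles, so the rise cannot be assigned to the expanded or the ordinary one. In 175Q mice Atxn1 was at 55.2, 56.8, 54.1 and 51.5 CPM, between the other groups, and 175QK772T exceeded 175Q by 0.17 ± 0.03 on the log2 scale (adjusted p = 0.0251). At 26 weeks, in other mice, it was at 59.6, 62.1, 51.5 and 44.6 CPM in WT and 59.9, 42.96, 62.8 and 62.9 in 175QK772T, with overlapping groups and a log2 fold change of 0.06 ± 0.14 (adjusted p = 0.835). The low mutant value is of replicate 2, a library with 11.5% of its counts on mitochondrial genes. The lowest WT value is of replicate 4, a library with 3.90%, and the reason for either value was not tested. Without the 26-week libraries of high mitochondrial share the log2 fold change was 0.19 ± 0.10 (edgeR adjusted p = 0.286).

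The reference sequence around the changed codon is shown because the allele is defined by it. It is the minus strand of GRCm38 chr13:45557166-45557216, in exon 8 of 8, with the lysine codon in capitals at 45557190 to 45557192. That lysine is residue 747 of the mouse reference protein and lies in the only cluster of arginine, lysine, arginine and arginine in it. The label numbers it K772T, as in the human protein. The sequence is the unchanged reference, and the reads were not examined for the substitution.
Atxn1 codon: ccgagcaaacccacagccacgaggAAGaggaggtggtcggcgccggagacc

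Over the 20447 genes tested, 826 passed an adjusted p of 0.05 and are termed called (4.04%), 319 of them higher (1.56%) and 507 lower (2.48%) in 175QK772T than in WT. Most of the differences were small. The median size of the log2 fold change among the called genes was 0.29, 672 of the 826 (81.4%) changed by less than 1.5-fold, and 67 changed by 2-fold or more, of which 54 were lower. The 4 values of one genotype lay wholly above or below the 4 of the other for 740 of the called genes (89.6%), and for 9.84% of all tested genes. Leaving out any 1 library other than WT replicate 1 gave fewer calls, and leaving out that one gave 951. The fewest were without 175QK772T replicate 4, the only male of its group, with 514 genes called and 185 of them higher. Lower genes were fewest without WT replicate 3, at 317, and nearly as few without 175QK772T replicate 4, at 329.

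**Figure D1:**
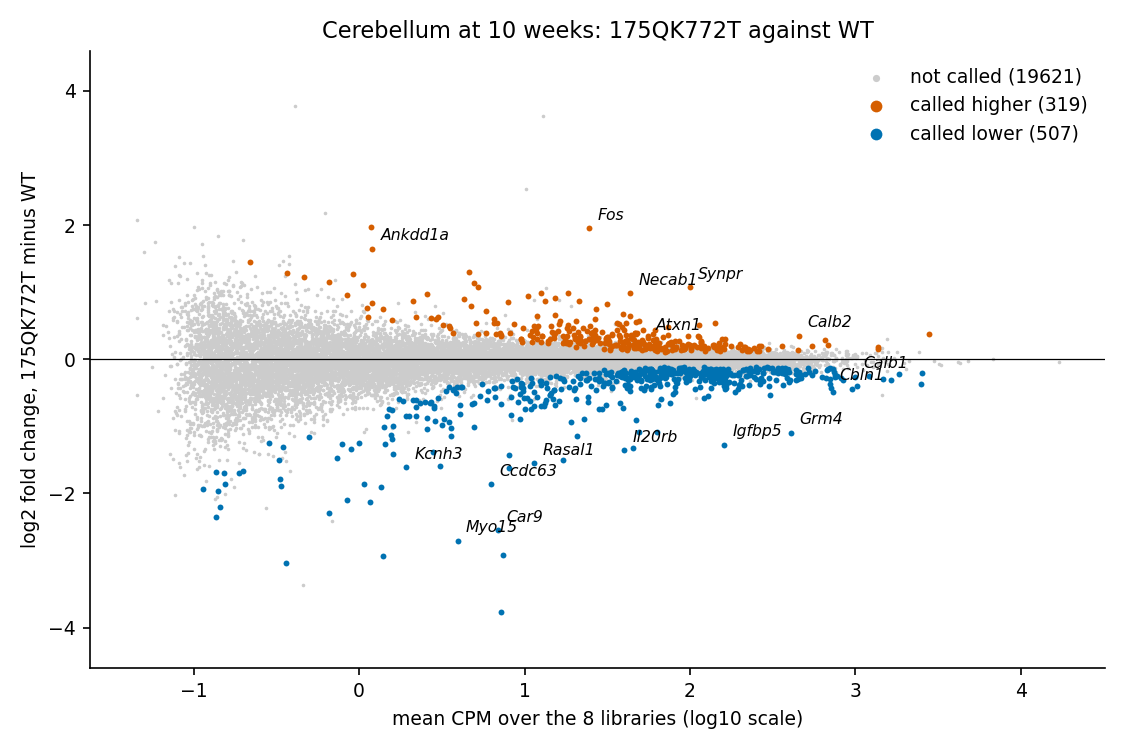
Each point is 1 of the tested genes, with the mean CPM of the 8 libraries on a log10 scale across and the log2 fold change of 175QK772T minus WT upward. Orange points were called higher (319) and blue ones lower (507), the largest called changes pointed down, and 1 uncalled gene lies outside the axis.

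The falls of smallest p were of genes with varied roles, some of which were expressed in WT mainly in the cerebellum. Il20rb, a subunit of the receptors for interleukin-20 cytokines (chr9:100457719-100486788, minus strand), was at 48.99, 62.4, 58.9 and 61.4 CPM in WT and 20.8, 19.8, 22.4 and 24.2 in 175QK772T. The groups were far apart and each was tight. Its log2 fold change was -1.36 ± 0.06 (edgeR adjusted p = 1.2e-08). Car9, a membrane-bound carbonic anhydrase (chr4:43506966-43513729, plus strand), was at 9.74, 13.2, 13.5 and 10.9 CPM in WT and 1.87, 1.902, 1.97 and 2.11 in 175QK772T. Every mutant value lay below the lowest WT value, and the log2 fold change was -2.55 ± 0.12 (edgeR adjusted p = 3.57e-08). Grm4 encodes mGluR4, the presynaptic glutamate receptor of parallel fibre terminals (chr17:27422387-27521403, minus strand). It was the most abundant of the leading genes, at 483, 601, 581 and 572 CPM in WT and 255, 271, 241 and 271 in 175QK772T. WT replicate 1 was the lowest of its group and still above every mutant. The log2 fold change was -1.09 ± 0.06 (edgeR adjusted p = 1.38e-07). Igfbp5, which binds insulin-like growth factors (chr1:72857932-72874884, minus strand), was at 242, 236, 228 and 206 CPM in WT and 99.1, 88.3, 82.1 and 105 in 175QK772T. The groups did not overlap and the log2 fold change was -1.27 ± 0.07 (edgeR adjusted p = 1.25e-07). Rasal1, a GTPase-activating protein for Ras (chr5:120648812-120679597, plus strand), was at 14.8, 17.7, 16.4 and 20.2 CPM in WT and 5.86, 5.502, 4.503 and 6.61 in 175QK772T. It fell in the same clear-cut way, with a log2 fold change of -1.55 ± 0.10 (edgeR adjusted p = 4.16e-07).

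The greatest fold changes belonged to less abundant genes. Chrnb4 and Chrna3 encode nicotinic acetylcholine receptor subunits and are neighbours on chromosome 9. Chrnb4 (chr9:55028154-55048779, minus strand) was at 1.98, 2.34, 2.76 and 2.68 CPM in WT and 0.465, 0.434, 0.335 and 0.11 in 175QK772T. No mutant value came near the WT range, and the log2 fold change was -2.93 ± 0.32 (edgeR adjusted p = 9.59e-05). Chrna3 (chr9:55010111-55026562, minus strand) was at 3.21, 1.55, 1.51 and 2.31 CPM in WT and 1.29, 0.268, 0.393 and 0.38 in 175QK772T. Here 175QK772T replicate 1 approached the WT mice, the log2 fold change was -1.90 ± 0.44 (edgeR adjusted p = 0.0235), and the call was lost in 5 of the 8 fits that left out 1 library. Myo15, an unconventional myosin known from the hair cells of the inner ear (chr11:60469339-60528369, plus strand), was at 4.36, 7.71, 8.05 and 7.405 CPM in WT and 1.02, 1.02, 1.11 and 0.835 in 175QK772T. WT replicate 1 was well below its group and still far above the mutants, and the log2 fold change was -2.70 ± 0.22 (edgeR adjusted p = 5.63e-06). Ccdc63, a coiled-coil protein known from the sperm tail (chr5:122108040-122140823, minus strand), was at 9.56, 10.5, 9.54 and 9.75 CPM in WT and 2.84, 2.58, 2.37 and 2.87 in 175QK772T. Both groups were tight and the log2 fold change was -1.86 ± 0.12 (edgeR adjusted p = 9.78e-07).

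The other large falls were of genes with varied roles. Gcnt1, a branching enzyme of O-linked glycans (chr19:17326141-17372844, minus strand), was at 15.3, 10.7, 13.01 and 8.94 CPM in WT and 4.84, 3.98, 3.78 and 3.73 in 175QK772T. WT values varied more than mutant ones without overlap, and the log2 fold change was -1.63 ± 0.11 (edgeR adjusted p = 1.01e-06). Tssk5, a kinase of a testis-specific family (chr15:76371952-76374938, minus strand), was at 3.76, 5.199, 4.76 and 4.94 CPM in WT and 1.64, 1.15, 1.07 and 2.14 in 175QK772T, a log2 fold change of -1.59 ± 0.19 (edgeR adjusted p = 0.000152). Rprml, a relative of the cell-cycle arrest gene Reprimo (chr11:103649570-103650579, plus strand), was at 1.797, 1.61, 1.72 and 1.61 CPM in WT and 0.558, 0.294, 0.577 and 0.417 in 175QK772T. All 4 mutants were below every WT mouse, and the log2 fold change was -1.86 ± 0.25 (edgeR adjusted p = 0.000521). Some unnamed loci fell as far or farther, which the plot of all genes shows.

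The rises of smallest p included a synaptic vesicle protein and a calcium-binding protein. Synpr encodes synaptoporin, a membrane protein of synaptic vesicles (chr14:13284780-13616340, plus strand), and had the smallest p of all genes. It was at 62.3, 59.4, 69.7 and 63.7 CPM in WT and 135, 130.0, 142 and 134 in 175QK772T. The lowest mutant was far above the highest WT mouse. The log2 fold change was 1.07 ± 0.04 (edgeR adjusted p = 6.96e-09). Necab1, a neuronal calcium-binding protein (chr4:14952245-15149794, minus strand), was at 33.9, 24.97, 28.8 and 28.2 CPM in WT and 62.7, 60.4, 53.7 and 55.8 in 175QK772T. The groups were well separated, with a log2 fold change of 0.98 ± 0.07 (edgeR adjusted p = 2.89e-06). Pde3a, a phosphodiesterase of cyclic nucleotides (chr6:141249269-141507448, plus strand), was at 32.3, 33.2, 35.8 and 34.4 CPM in WT and 52.95, 51.8, 51.3 and 55.3 in 175QK772T. Within each group the mice hardly differed, and the log2 fold change was 0.64 ± 0.05 (edgeR adjusted p = 2.78e-06). Sfrp4, a secreted antagonist of Wnt signalling (chr13:19623104-19632994, plus strand), was at 2.596, 3.26, 2.99 and 3.75 CPM in WT and 6.27, 6.6004, 6.62 and 7.35 in 175QK772T. It rose in all 4 mutants, with a log2 fold change of 1.14 ± 0.09 (edgeR adjusted p = 5.14e-06). Lrp1b, a large receptor of the low-density lipoprotein receptor family (chr2:40595246-42653624, minus strand), was at 32.3, 29.6, 30.5 and 27.5 CPM in WT and 50.5, 47.4, 51.5 and 43.8 in 175QK772T. Again the ranges were apart, and the log2 fold change was 0.67 ± 0.06 (edgeR adjusted p = 1.66e-05).

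Further rises of about 2-fold or more were of low-abundance genes. Slc44a5, a choline transporter-like protein (chr3:153973436-154271722, plus strand), was at 6.79, 7.52, 7.01 and 7.85 CPM in WT and 12.3, 15.5, 14.2 and 13.1 in 175QK772T, a log2 fold change of 0.95 ± 0.09 (edgeR adjusted p = 2.26e-05). Rprm, or Reprimo, a cell-cycle arrest gene induced by p53 (chr2:54084093-54085552, minus strand), was at 2.16, 1.45, 1.67 and 1.66 CPM in WT and 3.43, 3.28, 3.19 and 3.78 in 175QK772T, a log2 fold change of 0.98 ± 0.13 (edgeR adjusted p = 0.000416). It moved up while its relative Rprml moved down. Ankdd1a, a protein with ankyrin repeats and a death domain (chr9:65488470-65520193, minus strand), was at 0.537, 0.526, 0.643 and 0.622 CPM in WT and 1.88, 1.76, 1.43 and 2.18 in 175QK772T. Every mutant was above every WT mouse, and the log2 fold change was 1.65 ± 0.22 (edgeR adjusted p = 0.000479). Mndal and Ifi203, both of the interferon-inducible p200 family on chromosome 1, also rose, by 1.30 ± 0.14 and 1.08 ± 0.12 on the log2 scale (edgeR adjusted p = 9.59e-05 and 0.000148). They overlap on the same strand (chr1:173849126-173942491, minus strand and chr1:173920407-173942672, minus strand) and resemble other members closely, so how reads were divided between them is uncertain.

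**Figure D2:**
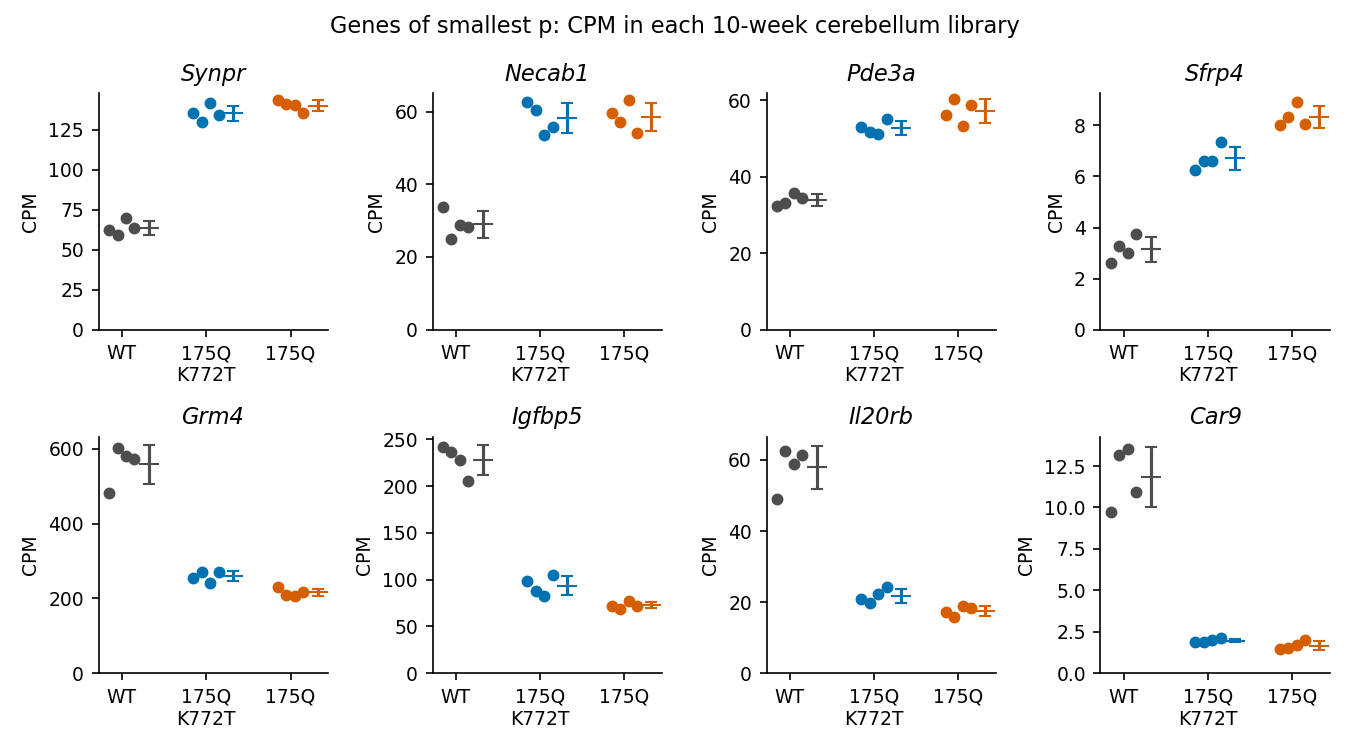
CPM of 8 genes in each 10-week cerebellum library, 1 point per mouse, with the mean ± SD of 4 mice beside each group, on axes that start at 0. The upper 4 genes (Synpr, Necab1, Pde3a, Sfrp4) are higher and the lower 4 (Grm4, Igfbp5, Il20rb, Car9) lower in all 175QK772T mice than in all WT mice, and the 175Q mice lie on the same side of WT as the 175QK772T mice.

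Features of the called genes are given here as counts and without a test. Of the 507 lower genes, 333 (65.7%) had their highest WT level in the cerebellum among the 5 regions sampled at 10 weeks, against 83 of the 319 higher genes (26.0%) and 35.4% of all genes tested. At least 4-fold above every other region (with 0.1 CPM added) were 91 of the lower genes (17.9%), 8 of the higher genes (2.51%) and 1.45% of all. Il20rb was at 57.4 CPM in WT cerebellum and at 0.469 in WT brainstem, and Tssk5 was at 4.62 and 0.0116. The WT cerebellum libraries behind these levels are also those of the comparison, so a gene called lower was chosen in part for a high level in them. Higher genes were long: 116 of them (36.4%) spanned more than 100 kb, against 103 of the lower genes (20.3%) and 12.1% of all, and the median spans were 38.7, 27.7 and 17.2 kb. Synpr spans 332 kb and Lrp1b 2058 kb. Both sets were more abundant than the rest, with median WT levels of 35.9 CPM for higher, 67.5 for lower and 11.3 for all genes, and a small change is more easily called in an abundant gene.

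Of 19 Purkinje cell markers tested, 7 fell, none rose and all 19 fold changes were below 0, with a median log2 fold change of -0.16 against 0.00 over all tested genes. Over all tested genes 2.48% fell and 1.56% rose. Rgs8, which speeds the shut-off of G proteins (chr1:153653025-153700323, plus strand), was at 1507, 1762, 1575 and 1678 CPM in WT and 1275, 1252, 1333 and 1377 in 175QK772T. The ranges did not touch, and the log2 fold change was -0.29 ± 0.04 (edgeR adjusted p = 0.00115). Calb1, the calcium buffer calbindin (chr4:15881264-15908064, plus strand), was at 1058, 1058, 1131 and 1102 CPM in WT and 881, 895, 959.9 and 906 in 175QK772T. Its groups were likewise apart, with a log2 fold change of -0.26 ± 0.04 (edgeR adjusted p = 0.00158). Pcp4, a calmodulin-binding protein (chr16:96467606-96525793, plus strand), was at 47.7, 47.3, 51.5 and 44.9 CPM in WT and 36.9, 33.6, 39.1 and 37.9 in 175QK772T. It had the largest fall of the list, -0.38 ± 0.05 on the log2 scale (edgeR adjusted p = 0.000483). Gng13, a G protein gamma subunit (chr17:25717171-25719406, plus strand), was at 116, 129, 131 and 131 CPM in WT and 90.9, 92.2, 109.6 and 104 in 175QK772T, a log2 fold change of -0.33 ± 0.06 (edgeR adjusted p = 0.00338). Car8, a protein that binds the inositol trisphosphate receptor, and Ppp1r17, an inhibitor of protein phosphatases, fell by 0.22 and 0.16 on the log2 scale, and the call of Ppp1r17 was lost in 5 of 8 fits without 1 library. Pcp2 at -0.14 ± 0.08, the glutamate transporter Slc1a6 at -0.07 ± 0.05 and the transcription factor Skor2 at -0.05 ± 0.08 did not pass. Summed over the list, WT libraries had 10122 to 11192 CPM and 175QK772T libraries 9237 to 10060. Fits without 1 library called 6 to 9 of the 19, and the other settings 1 to 11. With female mice alone Rgs8, Calb1 and Gng13 lost their calls and Pcp4 kept its call.

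In the same fit the 175Q mice, compared with the same WT libraries, had 17 of the 19 markers lower with a median of -0.47, where 1393 of all genes were lower (6.81%) and 937 higher (4.58%). Set directly against 175Q, 13 of the 19 were higher in 175QK772T, where 244 of all genes were called (1.19%) with 228 higher (1.12%) and 16 lower (0.0783%). Rgs8 was at 839, 911, 890.2 and 948 CPM in the 175Q mice, below both other groups, and 175QK772T exceeded 175Q by 0.57 ± 0.04 on the log2 scale (edgeR adjusted p = 7.58e-06). Pcp4 was at 26.4, 26.4, 26.4 and 25.98 CPM in 175Q, and the difference was 0.48 ± 0.05 (edgeR adjusted p = 0.00016). The 3 contrasts of the 3 genotypes share their libraries, so their values stand side by side and are not independent of each other.

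**Figure D3:**
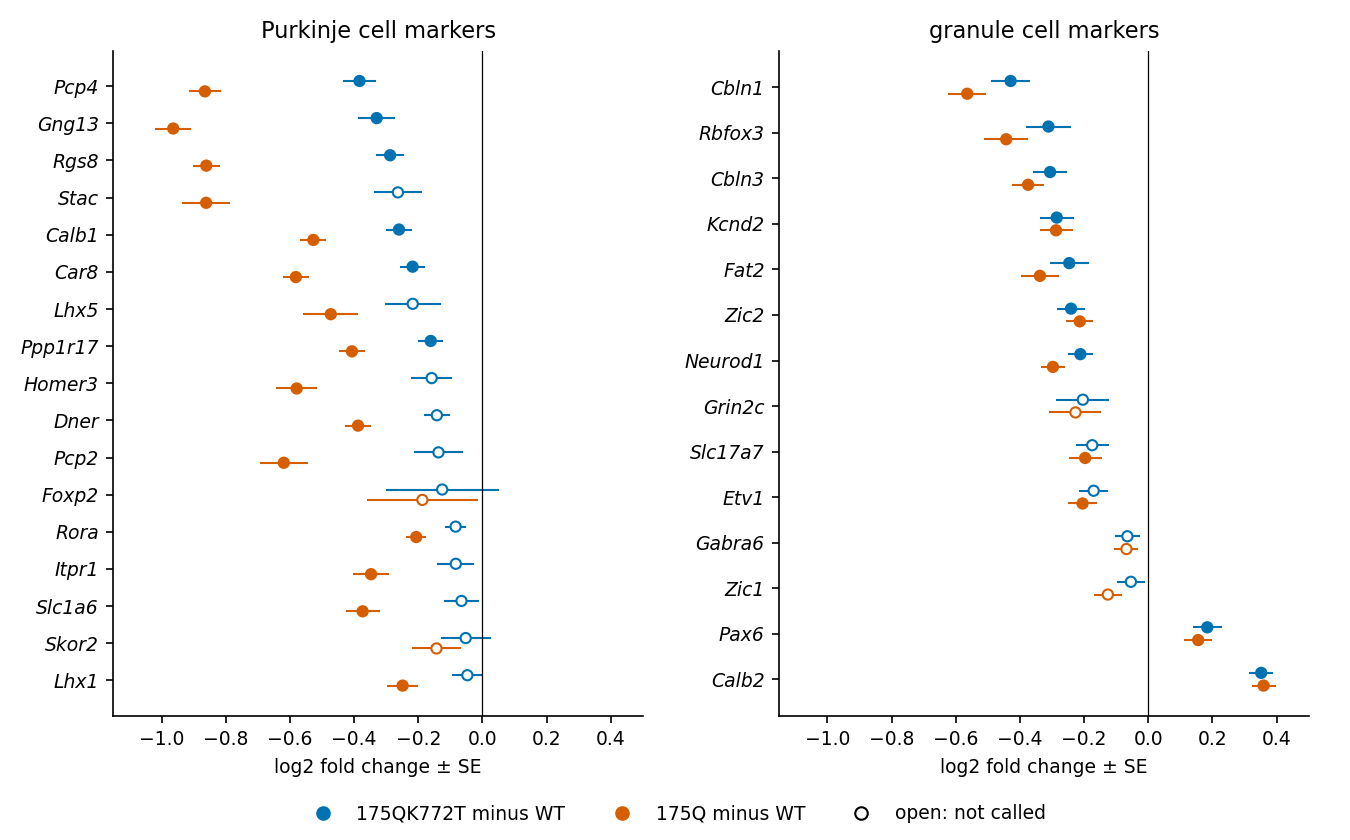
Log2 fold change ± SE of Purkinje cell markers (left, with 2 of the 19 left out) and of each granule cell marker (right) against the same 4 WT mice, blue for 175QK772T and orange for 175Q, with open points where the gene was not called. Purkinje cell markers lie nearer to 0 in 175QK772T (median -0.16 over all 19) than in 175Q (median -0.47). Granule cell markers lie at similar places in both (medians -0.21 and -0.22), which does not show that they are equal.

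Genes of calcium signalling share members such as Calb1, Homer3 and Itpr1 with the Purkinje list. Of 20 tested, 6 fell and none rose (against 2.48% and 1.56% of all genes), with a median log2 fold change of -0.15. Plcb3, a phospholipase C of the beta family (chr19:6952325-6976470, minus strand), was at 62.9, 70.3, 68.8 and 67.9 CPM in WT and 45.4, 47.2, 50.8 and 52.9 in 175QK772T. The groups were clearly apart and the log2 fold change was -0.44 ± 0.05 (edgeR adjusted p = 0.000152). Camk4, a calcium/calmodulin-dependent kinase, was at 240.3, 231, 241 and 223 CPM in WT and 182, 173, 166 and 188 in 175QK772T. It too changed without overlap, by -0.40 ± 0.05 on the log2 scale (edgeR adjusted p = 0.000152). Plcb4 and the inositol phosphatase Inpp5a fell by 0.13 and 0.17, calls lost in 7 and 6 of 8 fits without 1 library. The inositol trisphosphate receptor Itpr1 at a log2 fold change of -0.08 ± 0.06 and the calcium channel Cacna1a at -0.06 ± 0.05 did not pass. Against 175Q, 12 of the 20 were higher in 175QK772T, where 1.12% of all genes were. Camk4 was not one of them: it was at 167, 174, 162 and 181 CPM in 175Q, and 175QK772T minus 175Q was 0.05 ± 0.05. Leaving out 1 library at a time gave 4 to 9 called members.

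Potassium channels set the rapid and regular firing of Purkinje cells. Of 22 potassium channel genes 8 fell and 1 rose (against 2.48% and 1.56% of all genes), with a median of -0.12. Kcnip4, an auxiliary subunit of A-type channels (chr5:48389502-49524907, minus strand), was at 124, 133, 134 and 134 CPM in WT and 97.9, 99.3, 98.9 and 97.2 in 175QK772T. WT replicate 1 was lower than its group and above all mutants, and the log2 fold change was -0.41 ± 0.03 (edgeR adjusted p = 3.83e-06). Kcnip1, of the same family (chr11:33629339-33993152, minus strand), was at 62.1, 64.2, 63.6 and 63.03 CPM in WT and 51.97, 51.04, 51.98 and 49.6 in 175QK772T, a log2 fold change of -0.30 ± 0.03 (edgeR adjusted p = 0.00011). The largest fall was of Kcnh3, a channel of the Elk family (chr15:99224861-99242817, plus strand), at 2.31, 3.07, 3.55 and 2.72 CPM in WT and 0.872, 0.753, 0.889 and 1.19 in 175QK772T. All mutants were below all WT mice, with a log2 fold change of -1.61 ± 0.17 (edgeR adjusted p = 9.59e-05). In WT mice Kcnh3 was higher in the forebrain, at 223 CPM in cortex against 2.88 in cerebellum. Kcna2, Kcnc1 and Kcnd2 fell by 0.26, 0.36 and 0.29 on the log2 scale. Kcnd2 is also on the granule cell list, and in whole tissue none of these channel changes was assigned to a cell type. Kcnb2, a delayed rectifier channel (chr1:15287254-15723750, plus strand), went the other way, with 14.9, 12.998, 11.9 and 8.04 CPM in WT and 25.2, 26.7, 24.1 and 21.96 in 175QK772T. Its WT values were spread widely below the mutants, and the log2 fold change was 0.98 ± 0.12 (edgeR adjusted p = 0.000286).

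Of 20 sodium and calcium channel genes 3 rose and 1 fell (against 1.56% and 2.48% of all genes), with a median of 0.00. Cacna1b, the pore of N-type calcium channels, was at 75.8, 85.1, 76.7 and 76.5 CPM in WT and 95.7, 93.9, 89.98 and 94.2 in 175QK772T. WT replicate 2 was the highest of its group and under every mutant, and the log2 fold change was 0.27 ± 0.05 (edgeR adjusted p = 0.00348). The auxiliary subunit Cacna2d1 rose by 0.22 ± 0.04 and the L-type channel Cacna1d by 0.21 ± 0.05, and Cacnb4 fell by 0.14. The last 2 calls were lost in most fits that left out a library.

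Granule cell markers also changed, in both directions. Of 14 tested 7 fell and 2 rose (against 2.48% and 1.56% of all genes), with a median log2 fold change of -0.21. Cbln1, the synaptic organiser that granule cells release onto Purkinje cells (chr8:87468405-87472609, minus strand), was at 707, 845, 893 and 838 CPM in WT and 606, 612, 575 and 621 in 175QK772T. WT replicate 1 was low in its group and above all mutants, and the log2 fold change was -0.43 ± 0.06 (edgeR adjusted p = 0.000743). Cbln3, its secretion partner (chr14:55878913-55884392, minus strand), was at 1640.4, 1885, 1926 and 1824 CPM in WT and 1423, 1413, 1367 and 1608 in 175QK772T. The nearest WT and mutant values almost met, and the log2 fold change was -0.31 ± 0.05 (edgeR adjusted p = 0.00302). The transcription factors Zic2 and Neurod1, the splicing factor Rbfox3, the potassium channel Kcnd2 and the cadherin Fat2 fell by 0.24, 0.21, 0.31, 0.29 and 0.25 on the log2 scale. The calls of Rbfox3 and Fat2 were each lost in 6 of 8 fits without 1 library. Calb2, the calcium buffer calretinin (chr8:110137502-110168210, minus strand), rose, with 387, 426, 401 and 405 CPM in WT and 515, 514, 479 and 539 in 175QK772T. No values overlapped, and the log2 fold change was 0.35 ± 0.04 (edgeR adjusted p = 9.59e-05). Pax6, a transcription factor of the granule cell lineage, rose by 0.18 ± 0.04, a call lost in 5 of those fits. Gabra6 at -0.07 ± 0.04 and Zic1 at -0.05 ± 0.04, defining markers of the same cells, did not pass. Fits without 1 library called 6 to 11 of the 14. Summed levels of the list overlapped, at 7658 to 8765 CPM in WT and 7013 to 7755 in 175QK772T.

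In the 175Q mice 9 of these 14 genes were lower and 2 higher than in WT (against 6.81% and 4.58% of all genes), with a median of -0.22. In the direct contrast none of the 14 was called between 175QK772T and 175Q by edgeR (2 at an unadjusted p below 0.05, median difference 0.03), where 1.19% of all genes were called. The lack of calls does not show that the levels of these 14 were equal. Cbln1 was at 558, 532, 533 and 598 CPM in 175Q, within reach of the 175QK772T mice, with a difference of 0.14 ± 0.06 (edgeR adjusted p = 0.429). Calb2 was at 534, 504, 513 and 526 CPM in 175Q, and the difference was -0.01 ± 0.04. The same held for the genes with the clearest rises: Synpr at 143, 141, 141 and 135 CPM in 175Q differed from 175QK772T by -0.06 ± 0.04, Necab1 by -0.03 ± 0.07 and Pde3a by -0.12 ± 0.05, none of them called. Among the falls, Il20rb at 17.2, 15.7, 18.9 and 18.5 CPM in 175Q was lower than in 175QK772T by a called difference of 0.36 ± 0.06 (edgeR adjusted p = 0.00551), as were Igfbp5 (0.38 ± 0.07), Grm4 (0.28 ± 0.06), Myo15 (1.27 ± 0.25) and Kcnh3 (0.89 ± 0.19). Car9 (0.28 ± 0.13), Ccdc63 (0.02 ± 0.13) and Rasal1 (0.14 ± 0.10) were not called, which does not show that they were equal.

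Synaptic genes of other kinds changed in few members, where 2.48% of all genes fell and 1.56% rose. Of 16 glutamate receptor genes Grm4 fell, and Grik2 and Gria2 rose. Grik2, a kainate receptor subunit (chr10:49094833-49788766, minus strand), was at 138, 134, 150.1 and 136 CPM in WT and 175, 180.2, 177 and 166 in 175QK772T. The ranges were separate, and the log2 fold change was 0.30 ± 0.03 (edgeR adjusted p = 9.59e-05). Gria2, the AMPA receptor subunit that limits calcium entry, was at 489, 515, 524 and 511 CPM in WT and 583, 576, 603 and 582 in 175QK772T, a log2 fold change of 0.20 ± 0.04 (edgeR adjusted p = 0.0159), which did not pass without 175QK772T replicate 4. Among 15 genes of GABA receptors and synthesis, Gabbr2 fell by 0.13, a call lost in 7 of 8 fits without 1 library, and the synthesising enzymes Gad1 and Gad2 were at -0.03 ± 0.04 and -0.03 ± 0.05. Of 12 organisers of Purkinje cell synapses, Cbln1 and Cbln3 fell while Nlgn1 and Lrrtm1 rose, the last a call lost in 6 of 8 such fits. Nlgn1, a postsynaptic adhesion protein (chr3:25426215-26332460, minus strand), was at 38.4, 33.5, 34.8 and 36.1 CPM in WT and 45.4, 45.8, 48.5 and 45.03 in 175QK772T. Every mutant exceeded every WT mouse, and the log2 fold change was 0.37 ± 0.05 (edgeR adjusted p = 0.000364). Of 15 neuropeptide genes 3 fell, Crhr1, Cck and Npy, and the call of Npy was lost in all 8 fits without 1 library. Crhr1, the receptor for corticotropin-releasing hormone (chr11:104132855-104175523, plus strand), was at 72.1, 87.9, 84.3 and 74.9 CPM in WT and 53.8, 56.3, 50.05 and 51.6 in 175QK772T. It changed without overlap by -0.59 ± 0.07 on the log2 scale (edgeR adjusted p = 0.000145). Cck, the peptide cholecystokinin, was at 32.5, 30.7, 29.7 and 31.5 CPM in WT, 27.5, 24.03, 23.8 and 26.1 in 175QK772T and 16.7, 16.6, 17.4 and 18.2 in 175Q. The 175QK772T mice lay between the other groups, -0.28 ± 0.05 from WT and 0.57 ± 0.06 from 175Q.

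Among 14 known targets of CIC 4 rose and 1 fell (against 1.56% and 2.48% of all genes), with a median log2 fold change of 0.15. Etv4, an ETS transcription factor (chr11:101769742-101785371, minus strand), was at 12.6, 16.8, 15.4 and 16.5 CPM in WT and 20.02, 23.6, 20.2 and 18.9 in 175QK772T. Mutants were above WT throughout, with a log2 fold change of 0.46 ± 0.09 (edgeR adjusted p = 0.00715). Dusp4, a phosphatase that switches off MAP kinases (chr8:34807297-34819894, plus strand), was at 8.08, 5.199, 4.898 and 4.31 CPM in WT and 9.91, 8.75, 10.1 and 12.6 in 175QK772T. WT replicate 1 came close to the lowest mutant, and the log2 fold change was 0.85 ± 0.18 (edgeR adjusted p = 0.0161). Dusp6, a phosphatase of the same family (chr10:99263231-99267489, plus strand), was at 20.7, 16.7, 15.9 and 15.2 CPM in WT and 21.3, 21.5, 23.6 and 23.9 in 175QK772T. Its groups also came close, through WT replicate 1, with a log2 fold change of 0.36 ± 0.09 (edgeR adjusted p = 0.0459). Ccnd1, cyclin D1, was at 44.5, 46.6, 42.3 and 43.8 CPM in WT and 45.97, 49.8, 57.3 and 52.6 in 175QK772T, which overlapped, and its log2 fold change was 0.22 ± 0.06 (edgeR adjusted p = 0.0392). Dusp5, another phosphatase of the family (chr19:53529109-53542431, plus strand), fell instead, from 82.1, 71.3, 84.9 and 74.4 CPM in WT to 51.2, 42.998, 49.6 and 54.4 in 175QK772T. These ranges were far apart, and the log2 fold change was -0.68 ± 0.13 (edgeR adjusted p = 0.00833). Etv5 at -0.02 ± 0.10, Spred1 at -0.02 ± 0.06 and Spry4 at 0.79 ± 0.24 did not pass. Between 2 and 6 members were called when 1 library was left out, 2 of them without WT replicate 3. The calls of Dusp6 and Ccnd1 were each lost in 7 of those 8 fits and that of Dusp4 in 3, whereas Etv4 and Dusp5 kept theirs. Of 13 tested genes of ataxin-1 and its partners, only Atxn1 passed: its relative Atxn1l was at 0.12 ± 0.04, Cic at -0.02 ± 0.06 and the splicing factor Rbm17 at -0.09 ± 0.04.

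CIC binds the octamers TGAATGAA, TGAATGGA, TCAATGAA and TCAATGGA, and these were searched on both strands of RefSeq promoters (GRCm38.p6, 250 bases before to 50 after each start). They occurred in 3.84% of all 32851 promoters, and in 2.54% of those of the tested genes, of which 13229 of 20433 symbols matched. Of the higher genes with a promoter, 13 of 236 had one (5.51%), of the lower genes 6 of 349 (1.72%) and of all tested 3.08%. Of the 14 known targets 9 had a promoter and 4 of these a match: Dusp6, Spred3, Spry2 and Maff. Among these 4 Dusp6 passed the test, and Spred3 at 0.20 ± 0.06, Spry2 at 0.10 ± 0.04 and Maff at 0.52 ± 0.23 on the log2 scale did not. The called targets Etv4, Dusp4 and Ccnd1 had no promoter to search, and the call of Dusp6 was lost in 7 of 8 fits without 1 library. Octamer and direction can therefore not be compared over the called targets. The promoters of 2 phosphatase genes that moved in opposite directions are shown, with the octamers in capitals. Dusp6, which rose, holds 2 copies, the first beginning 24 bases before the start site and the second 1 base after it (chr10:99262981-99263280, plus strand). Dusp5, which fell, has none of these letters in the window (chr19:53528895-53529194, plus strand). A match of letters is a description and no measure of binding.
Dusp6 promoter: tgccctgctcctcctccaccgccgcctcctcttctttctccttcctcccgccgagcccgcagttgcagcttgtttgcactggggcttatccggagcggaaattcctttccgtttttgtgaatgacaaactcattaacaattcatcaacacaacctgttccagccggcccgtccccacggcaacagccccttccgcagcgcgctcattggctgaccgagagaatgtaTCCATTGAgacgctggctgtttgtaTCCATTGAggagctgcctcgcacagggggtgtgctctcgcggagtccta
Dusp5 promoter: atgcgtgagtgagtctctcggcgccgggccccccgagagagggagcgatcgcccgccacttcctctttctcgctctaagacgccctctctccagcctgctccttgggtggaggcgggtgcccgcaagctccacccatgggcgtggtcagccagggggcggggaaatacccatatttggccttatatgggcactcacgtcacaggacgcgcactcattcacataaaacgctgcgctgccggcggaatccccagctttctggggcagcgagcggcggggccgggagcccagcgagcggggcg

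Immediate early genes, which neurons switch on within minutes of activity, were looked at because bulk tissue carries traces of recent activity. Of 15 tested 3 rose (against 1.56% of all genes) and 13 fold changes were above 0, with a median of 0.42. Fos (chr12:85473890-85477273, plus strand) was at 15.6, 3.69, 8.56 and 8.24 CPM in WT, 40.2, 30.2, 62.03 and 28.9 in 175QK772T and 39.95, 26.9, 16.2 and 3.61 in 175Q. The 175QK772T mice were all above the WT mice, 175QK772T replicate 3 most of all, and the 175Q mice spread over both ranges. The log2 fold change against WT was 1.95 ± 0.40 (edgeR adjusted p = 0.012). Nr4a1, a nuclear receptor of the same class (chr15:101254269-101274795, plus strand), was at 18.9, 12.1, 13.4 and 13.4 CPM in WT and 26.3, 23.1, 38.8 and 25.3 in 175QK772T, again highest in replicate 3. Its log2 fold change was 0.87 ± 0.17 (edgeR adjusted p = 0.00879). Btg2, an anti-proliferative gene, was at 18.9, 18.3, 23.3 and 19.8 CPM in WT and 28.1, 28.3, 27.4 and 26.7 in 175QK772T, a log2 fold change of 0.42 ± 0.08 (edgeR adjusted p = 0.00757). Without 175QK772T replicate 4 none of the list was called by edgeR and the median was 0.24. With all libraries 9 members had an unadjusted p below 0.05, and DESeq2 called 4. Arc at -0.23 ± 0.07 and Egr1 at 0.06 ± 0.11 did not share the rise. Fos overlapped between genotypes at 26 weeks, at 8.98, 8.82, 8.399 and 35.7 CPM in WT and 57.4, 52.5, 17.1 and 7.89 in 175QK772T.

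Markers of other cell types were called in few members, where 4.04% of all genes were called. By edgeR none passed among 14 of Bergmann glia and astrocytes (4 at an unadjusted p below 0.05 and 2 called by DESeq2), 14 of oligodendrocytes (2 and 0), 12 of microglia (0 and 0) and 10 of endothelium and pericytes (2 and 0). Fold changes below 0 numbered 7, 12, 9 and 8 in that order. The median log2 fold changes were 0.01, -0.08, -0.04 and -0.08, so a lean below 0 was not confined to Purkinje and granule cell markers. Summed levels overlapped between the genotypes for astrocytes (4525 to 4631 CPM in WT, 4427 to 4921 in 175QK772T), oligodendrocytes (6985 to 7806 and 6681 to 7296), microglia (177 to 202 and 176 to 195) and endothelium (417 to 445 and 396 to 420.3). Of 12 interneuron markers 1 fell, Eomes of unipolar brush cells, at 18.5, 9.89, 13.1 and 10.7 CPM in WT and 9.33, 9.12, 10.8 and 9.46 in 175QK772T, with overlap and a call lost in 5 of 8 fits without 1 library. In that list 10 of the 12 fold changes were below 0, with a median of -0.09. Its summed levels did not overlap, at 1057 to 1076 CPM in WT and 925 to 1037 in 175QK772T. Choroid plexus and ependymal markers moved with WT replicate 3. Their median was 0.13 with it and -0.33 without it, and by edgeR none of 11 was called (0 at an unadjusted p below 0.05 and 0 by DESeq2). Among 8 tested markers of brainstem neurons only Slc18a2, a vesicular monoamine transporter, was called, at 0.999, 0.438, 2.399 and 0.521 CPM in WT and 0.291, 0.0894, 0.242 and 0.27 in 175QK772T, with the highest value in WT replicate 3. Its log2 fold change was -2.29 ± 0.47 (edgeR adjusted p = 0.0114), and -1.59 without that library (edgeR adjusted p = 0.0447). Dbh was at 0.262, 0.277, 2.58 and 0.216 CPM in WT and 0.105, 0.0128, 0.0577 and 0.147 in 175QK772T, its highest value also in that library. The summed brainstem markers ran from 11.6 to 27.2 CPM in WT and 11.5 to 14.4 in 175QK772T. The part of WT replicate 3 in other results was not tested beyond the fits that left it out, in which 317 genes were called lower.

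**Figure D4:**
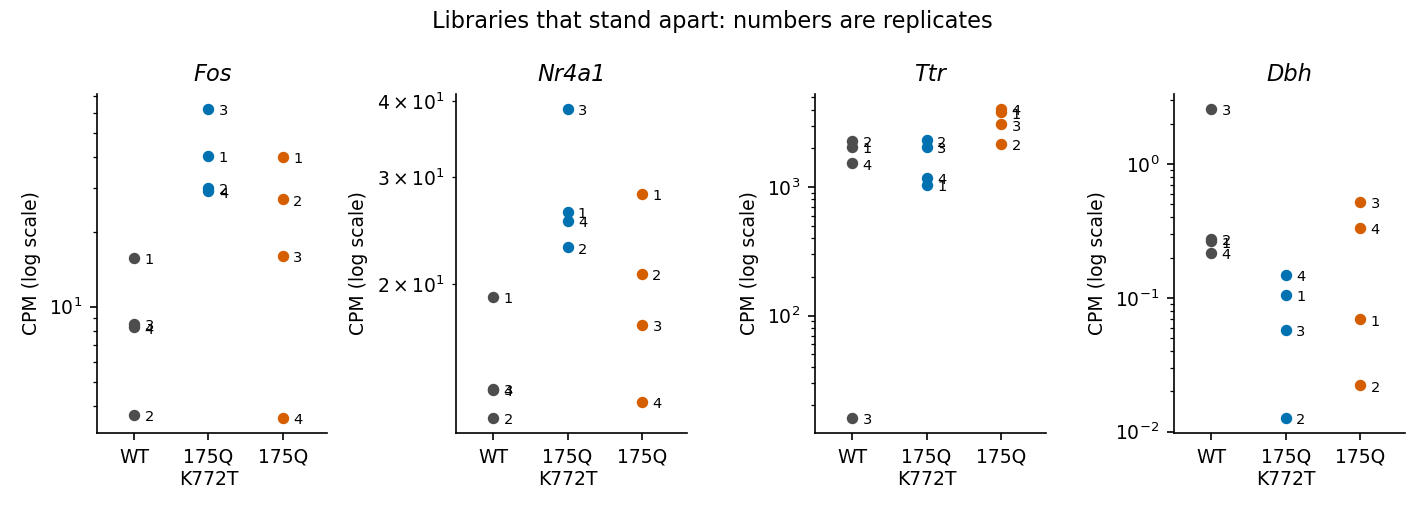
CPM on a log axis in each 10-week cerebellum library of Fos, Nr4a1, Ttr and Dbh, with each point's replicate number. WT replicate 3 is the lowest for Ttr and the highest for Dbh, and Fos in the 4 175QK772T mice lies above all WT mice.

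Few genes of the stress and metabolic lists passed, where 4.04% of all genes did. Among 12 genes of the endoplasmic reticulum and amino acid stress response edgeR called none (1 at an unadjusted p below 0.05, 0 by DESeq2), and among 13 mitochondrially encoded proteins none (0 and 0). Of 16 genes of cholesterol synthesis Mvd rose by 0.32 ± 0.07, a call lost in 4 of 8 fits without 1 library. Of 16 interferon response genes Stat2 fell by 0.20, a call lost without WT replicate 3. Their median of -0.26 rested on WT replicate 1, which had 34.97 CPM of Ifit3 where the other WT mice had 11.6 to 16.2, and was 0.20 without that library. Without WT replicate 3 it was -0.48.

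Of 182 tested genes within 10 Mb of Atxn1, 13 were called (7.14%), against 4.01% of the rest. Those with a symbol that the naming rule admits are Elovl2, Hivep1, Phactr1, Nol7, Cks2, Diras2, Sfxn1, Cplx2 and Gprin1. Elovl2, an elongase of long fatty acids (chr13:41182381-41220405, minus strand), was at 39.8, 40.7, 41.4 and 40.5 CPM in WT and 48.8, 47.6, 53.2 and 51.5 in 175QK772T. The groups were tight and apart, with a log2 fold change of 0.31 ± 0.04 (edgeR adjusted p = 0.000743). Cplx2, complexin 2 of the release machinery (chr13:54371349-54383917, plus strand), was at 1094, 1273, 1139.8 and 1198 CPM in WT and 885, 830.1, 807 and 979.7 in 175QK772T, a log2 fold change of -0.40 ± 0.05 (edgeR adjusted p = 0.000526). The other 7 lay between -0.17 ± 0.04 for the fall of Gprin1 and 0.63 ± 0.16 for the rise of Cks2, and 6 of them lost their call in at least 4 of the 8 fits without 1 library. Sequence inherited with the knock-in allele in this region cannot be told apart from its effects.

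At 26 weeks the same comparison was made in other mice, 4 of each genotype, with 30.4 to 49.9 M pairs a library. Free text of those samples names the line by another repeat length than their genotype field, which was used. Of 19156 genes 57 were called (0.298%), 13 higher (0.0679%) and 44 lower (0.23%). Of the 57, 46 (80.7%) were also called at 10 weeks, all in the same direction, 9 higher and 37 lower, which is 5.57% of the 10-week calls. Of the 815 called genes tested at both ages, 697 (85.5%) had the same sign at 26 weeks, against 61.1% of all 18916 genes tested at both. Higher and lower genes did so alike, in 84.3% and 86.3%. Median log2 fold changes of the called genes were 0.28 and -0.29 at 10 weeks and 0.25 and -0.31 at 26 weeks. Across these 815 genes, which were chosen at 10 weeks and are not independent, Pearson's r of the fold changes was 0.85, against 0.31 over all genes tested at both ages.

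Synpr was at 80.03, 65.2, 66.8 and 77.97 CPM in the 26-week WT mice and 161, 169, 147 and 141 in the 175QK772T mice. The groups were apart as at 10 weeks, with a log2 fold change of 1.09 ± 0.11 (edgeR adjusted p = 0.00153). Car9 was at 8.09, 10.7, 11.9 and 8.81 CPM in WT and 1.42, 1.397, 1.64 and 1.05 in 175QK772T, with no overlap and a log2 fold change of -2.84 ± 0.24 (edgeR adjusted p = 0.000506). Igfbp5 was at 164, 271, 211 and 210.1 CPM in WT and 91.1, 68.1, 92.02 and 87.1 in 175QK772T, again apart, with a log2 fold change of -1.33 ± 0.13 (edgeR adjusted p = 0.00155). Myo15, Ccdc63, Rasal1, Il20rb, Grm4, Gcnt1 and Tssk5 were called lower there too. Of the Purkinje cell markers 18 of 19 were again below 0, with a median of -0.28, and the smallest adjusted p among them was 0.108. Granule cell markers had 9 of 14 below 0 and a median of -0.11. Calb2 was at 0.74 ± 0.14 (edgeR adjusted p = 0.0501).

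**Figure D5:**
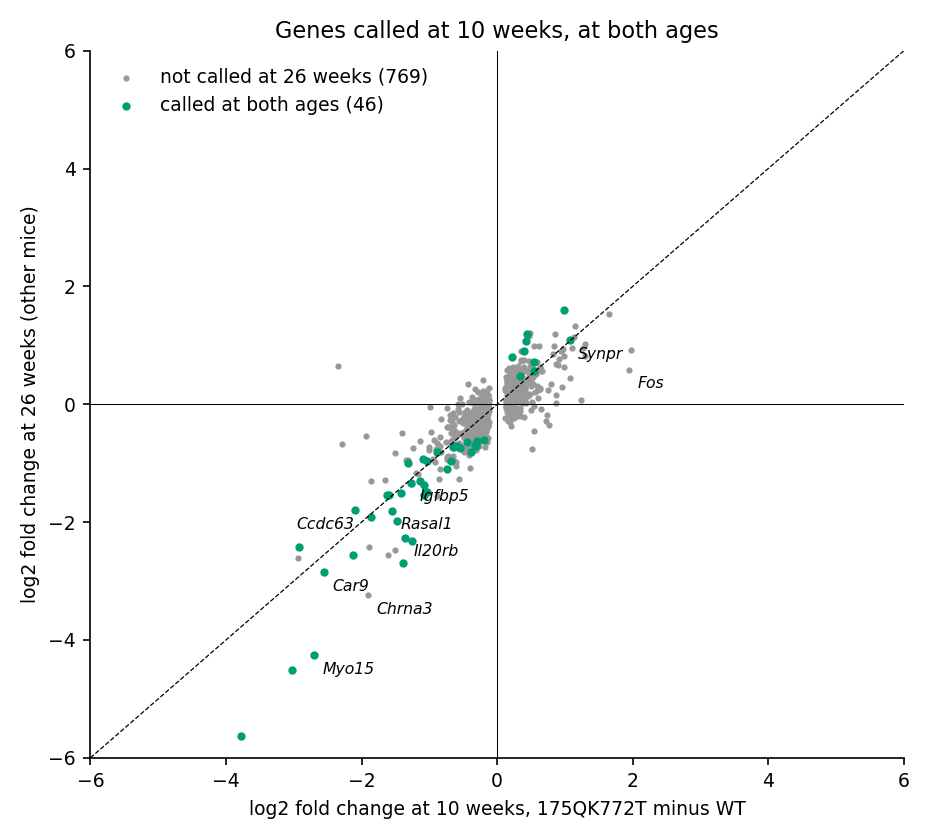
Log2 fold change of 175QK772T minus WT at 10 weeks (across) and 26 weeks (upward) for the 815 genes called at 10 weeks and tested at both ages, with the line of equal change dashed. The 46 genes called at both ages (green) lie in the quadrants of equal sign, as do 697 of the 815.

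The depth and spread of the ages differed, and a change of the 175QK772T effect with age was tested directly. By edgeR none of 21103 genes passed (0%), with 1353 at an unadjusted p below 0.05, a smallest adjusted p of 0.635, and 6 genes called by DESeq2. Among the 12 cerebellum libraries of that age, 1 of 175QK772T (replicate 2) and 1 of 175Q (replicate 4), had more than 10% of counts on mitochondrial genes. Leaving out that 175QK772T library alone gave 26 calls at 26 weeks, fewer than the 57 with all libraries. The 175Q library is in neither group of the contrast and enters it only through the shared fit. Without both libraries 702 of 19306 genes were called at 26 weeks, of which 285 (40.6%) were called at 10 weeks. All 285 had the same direction, and they are 34.5% of the 10-week calls. Of the 19 Purkinje cell markers 9 were then lower and none higher, where 702 of all 19306 genes were called in either direction. The median of these markers was -0.40, and Calb2 was called at 0.66 ± 0.06 (edgeR adjusted p = 0.000443). The age interaction then had 4 genes, among them Nek2, Fgf7 and Muc3a.

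The other regions of the same 10-week mice gave other numbers for 175QK772T against WT. In the brainstem 7 genes were called (0.0331%), 1 higher (0.00473%) and 6 lower (0.0284%). In the hippocampus 2273 were (10.8%), 1072 higher (5.09%) and 1201 lower (5.7%), and in the striatum 3994 (19%), 1829 higher (8.71%) and 2165 lower (10.3%). The cortex had the most, 5364 (25.9%), 2458 higher (11.8%) and 2906 lower (14%). The regions come from the same animals, so the values are set side by side only. Synpr changed by 0.05 ± 0.06 on the log2 scale in brainstem, -0.46 ± 0.06 in cortex, 0.08 ± 0.09 in hippocampus and -0.32 ± 0.04 in striatum. It was called in cortex and striatum. Grm4 changed by -0.13 ± 0.08, -1.08 ± 0.08, -0.49 ± 0.24 and -0.76 ± 0.12 in the same order and was called in the same regions. Igfbp5, called in all 4, changed by -0.54 ± 0.06, -0.33 ± 0.06, -0.55 ± 0.11 and -0.32 ± 0.09. Atxn1 was higher in each of them, by 0.35 ± 0.04, 0.20 ± 0.04, 0.40 ± 0.05 and 0.10 ± 0.06, and was called in all but the striatum.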

How the data were processed

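RNA of mouse cerebellum was stored in RNAlater, extracted with TRIzol, selected for poly(A) with oligo-dT and sequenced in 150-nt pairs (NovaSeq), and the ages were prepared as separate batches, per the labels' protocols. Reads were handled with bcl2fastq 2.20.0, Trimmomatic 0.33, HISAT2 2.1.0 and featureCounts of Subread 1.6.2 on GRCm38, per the submitters' processing notes. The deposited tables hold raw counts per gene. Those of 10 weeks rest on Ensembl release 97, per the file headers, with both ends mapped, a mapping quality of at least 10 and the reverse strand. These settings are not given in the sources used here for 26 weeks.

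The 12 cerebellum libraries of 10 weeks were fitted together, 175Q included for a shared estimate of spread. After filterByExpr and TMM scaling, the quasi-likelihood test of edgeR was run on genotype and sex (R 4.3.3, edgeR 4.0.16, limma 3.58.1). Calls needed an adjusted p (Benjamini-Hochberg) under 0.05 and no minimum fold. Values in CPM carry the TMM scaling, those of WT in 5 regions are unscaled, and ± after a log2 fold change is its standard error. The 26-week cerebellum and the other 10-week regions were fitted likewise, and the age interaction over 24 libraries. Alternatives were DESeq2 1.42.0, RLE normalization, no filter, no sex term, a replicate block, the 8 libraries alone, females alone and each library left out. The test was tested on simulated data, and no pair of libraries agreed within sampling noise.

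Genes named are Atxn1, and among called genes that averaged 1 CPM or more with no overlap the 10 largest rises and falls and the 5 of smallest p each way, up to 4 of smallest p per list and called genes within 10 Mb of Atxn1. Gm-numbered and Rik symbols were left out. Others are named as members of a list, chosen after their values were seen. The 23 lists hold 322 genes, all matched by symbol. The members and lists were chosen with earlier results of these data known, so no p is adjusted over a list. Roles of genes are general knowledge. Some genes are counted in the list totals and are not reported here by name.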

Additional observations from a re-analysis of the deposited data

Results flagged for a closer look

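Within groups of 4 mice, 16 named values stood far from the other 3 of their group by Dixon's criterion on a log scale, of 238 groups looked at, and chance alone marks about 1 group in 20. WT replicate 3 had 0.322 CPM of Folr1, a folate receptor of choroid plexus, where the other WT mice had 9.56 to 14.7. The same library had 2.58 CPM of Dbh against 0.216 to 0.277 and 3.39 of Slc6a2 against 0.343 to 0.487. WT replicate 1 was low for Myo15 (4.36 against 7.40 to 8.05 CPM), Gng13 (116 against 129 to 131), Kcnip4 (124 against 133 to 134) and Cacna1d (76.8 against 90.1 to 92.7), and high for Rsad2 (4.34 against 1.72 to 1.92). For Myo15, Gng13 and Kcnip4, which fell in 175QK772T, that mouse lay toward the mutants, and for Cacna1d, which rose, away from them.

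WT replicate 2 had 85.1 CPM of Cacna1b against 75.8 to 76.7, and WT replicate 4 had 34.1 CPM of Cldn5 against 28.1 to 28.3. Among 175QK772T mice, replicate 1 had 93.7 CPM of Cacna1d against 101 to 102, replicate 2 had 27.4 CPM of Otx2 against 19.2 to 19.96 and 0.0894 of Slc18a2 against 0.242 to 0.291, and replicate 3 had 595 CPM of Diras2 against 642 to 646. Replicate 4 had 431 CPM of Grin2c against 353 to 358 and 1.13 of Tmem212 against 1.51.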

How the results depend on the processing

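Against 826 genes called between 175QK772T and WT, 319 higher and 507 lower, RLE normalization called 834, no sex term 846 and the 8 libraries alone 715. DESeq2 called 1370 (614 higher), and no low-count filter 1418 (582 higher and 836 lower). Female mice alone gave 251 (81 and 170). Leaving out 1 library gave 514 to 951 calls, 185 to 333 higher and 317 to 618 lower, the fewest without 175QK772T replicate 4 or, for lower genes, WT replicate 3. Between 175QK772T and 175Q, 244 genes were called, 572 by DESeq2, 942 without the filter and 148 to 205 without 1 library, fewest without 175Q replicate 1. At 26 weeks 57 genes were called, 377 by DESeq2 and 16 to 35 without 1 library (26 without 175QK772T replicate 2). Without the libraries of high mitochondrial share, chosen after seeing the data, 702 were called. The age interaction had 0 genes by edgeR, 0 in every fit without 1 library, 6 by DESeq2 and 4 without those libraries. The causes were not tested. No alternative reversed a direction that had been called, and no scaling moved the median of all genes by 0.1.

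Replicate numbers were shared between genotypes. Deviations of same-numbered WT and 175QK772T libraries correlated at -0.05 to 0.20 and 3 of 8 libraries correlated best with their own number. So few pairs cannot decide whether the numbers pair the mice, and the main fit left the numbers out. With the number as a replicate block 557 genes were called, 197 of them higher, and 143 between 175QK772T and 175Q.

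Of 70 named genes that were called, 49 kept their call in each of the 8 fits without 1 library and 21 lost it in at least 1. The 26-week libraries, at 30.4 to 49.9 M counts, were shallower than the 69.1 to 86.9 M of 10 weeks.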
